A study of Mus musculus with 24 samples.

Results

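The 9 genes described here are biliary and epithelial genes of the liver: the keratins Krt7, Krt8, Krt18, Krt19 and Krt23, the surface genes Epcam and Muc1, the transcription factor gene Sox9 and the chloride channel gene Cftr. They were chosen by symbol, 9 of 18820 genes that the arrays' probe sets named, and each of the 9 had 1 probe set. They were measured on 24 whole-transcript arrays, each from the liver of 1 male C57BL/6 mouse of 9 to 12 weeks on chow. There were 4 groups of 6 mice. FXR-/- mice (here KO) received obeticholic acid (OCA, INT-747) at 10 mg/kg/day by oral gavage for 7 days, or the vehicle, 1% methyl cellulose, and wild-type mice (WT) received the same OCA dose or the same vehicle. OCA is a semi-synthetic bile acid that activates FXR, the nuclear bile acid receptor encoded by Nr1h4. The labels name no cell type or Cre for the knockout, so a difference between genotypes covers every cell of the liver and the life of the animal before the 7 days.

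Cholangiocytes are the epithelial cells that line the bile ducts. In cholestatic or chronic liver injury, small duct-like strands spread from the portal tracts, which is called the ductular reaction, and it is usually followed in tissue by keratins and by EPCAM or SOX9. Keratins assemble as pairs of a type II and a type I chain. Krt8 and Krt18 form the pair of every simple epithelium and are the only keratins that healthy adult hepatocytes normally make, while Krt7 and Krt19 mark the ducts. In whole liver, hepatocytes therefore contribute to the Krt8 and Krt18 signal, and fewer cells of a type and less RNA per cell cannot be told apart in any value given here.

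The promoters of 7 of the 9 genes were in the RefSeq table for GRCm38.p6, and those of the 4 called genes with an entry are printed here because these genes were all called higher in KO livers under vehicle. Each line gives the 250 bases before the annotated start, 5′ to 3′ on the gene's strand. Capitals mark the matches, on either strand, to the motifs searched. The Krt8 promoter lies at chr15:102004343-102004592 on the minus strand, Krt18 at chr15:102027966-102028215 on the plus strand, Epcam at chr17:87635729-87635978 on the plus strand and Muc1 at chr3:89228806-89229055 on the plus strand.
Krt8: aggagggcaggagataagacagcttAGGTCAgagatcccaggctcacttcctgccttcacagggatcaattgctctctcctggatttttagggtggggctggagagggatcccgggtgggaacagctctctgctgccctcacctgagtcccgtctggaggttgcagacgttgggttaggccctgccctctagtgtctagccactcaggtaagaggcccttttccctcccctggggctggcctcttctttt
Krt18: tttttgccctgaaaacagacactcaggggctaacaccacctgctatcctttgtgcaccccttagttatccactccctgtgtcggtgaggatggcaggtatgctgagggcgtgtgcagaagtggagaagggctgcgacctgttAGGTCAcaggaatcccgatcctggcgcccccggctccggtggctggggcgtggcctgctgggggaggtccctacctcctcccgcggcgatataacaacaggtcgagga
Epcam: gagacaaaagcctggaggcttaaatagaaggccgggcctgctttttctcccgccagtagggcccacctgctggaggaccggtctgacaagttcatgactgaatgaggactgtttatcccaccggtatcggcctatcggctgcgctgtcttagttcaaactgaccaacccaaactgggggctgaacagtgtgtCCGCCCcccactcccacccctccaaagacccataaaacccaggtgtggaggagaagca
Muc1: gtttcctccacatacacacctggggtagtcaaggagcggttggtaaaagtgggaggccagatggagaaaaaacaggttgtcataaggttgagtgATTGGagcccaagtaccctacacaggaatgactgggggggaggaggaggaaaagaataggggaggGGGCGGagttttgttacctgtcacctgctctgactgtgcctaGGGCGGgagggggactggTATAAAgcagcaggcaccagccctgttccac

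Krt8 and Krt18 are neighbours on chromosome 15, on opposite strands, with 2 RefSeq genes between them, 0 of them protein-coding. The hexamer AGGTCA, which nuclear receptors bind, was in 2 of the 7 promoters, those of Krt8 (225 to 220 bases before the start) and Krt18 (108 to 103 bases before it), and in 14% of the 32851 promoters of the table. An inverted repeat of the kind that FXR binds with its partner RXR was searched in 1 exact spelling. It is that hexamer, 1 base of any kind and the hexamer on the other strand, so every match holds the hexamer too. This spelling was in 0 of the 7 and in 0.00609% of all promoters (2 of 32851). It is too rare for 7 promoters to tell anything, and repeats that depart from it were not searched, so the presence of FXR sites was not tested. The SP1 motif GGGCGG was in 4 of the 7 (32.7% of all promoters), TATAAA was in 1, Muc1 at 31 to 26 bases before the start (12.4%), CCAAT in 1, again Muc1 (33.8%), the SOX motif ACAATG in 1, Krt23 (10.7%), and the AP-1 motif TGANTCA in 0 (6.75%). The share of G and C in the 7 promoters lay between 52.8% (Krt23) and 76.4% (Cftr), against a median of 52.4% over all promoters. GGGCGG holds only G and C, and the part of this share in its matches was not tested. All these matches describe the letters in this window only.

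All levels are log2 values normalised by the authors, and a difference of 1 is a doubling. Array medians lay between 4.57 and 4.65, and the mean level of the median gene over all arrays was 5.28, with quartiles at 3.29 and 7.44. Nr1h4 had a lowest, median and highest level of 9.88, 9.91 and 10.13 in KO vehicle livers, against 9.96, 10.15 and 10.30 in WT vehicle livers, and it did not pass the test (−0.17, limma adjusted p = 0.0935). Where its probes lie relative to the deletion is not known from the labels or the table, so this level checks nothing about the knockout. WT vehicle replicate 6 stood apart from the rest: 532 genes on it lay over 1 log2 unit from the mean of the other arrays of its group, against 2 to 90 genes on the other arrays. The array names hold a code number whose meaning is not given, and it follows the groups: all 6 KO OCA and 2 KO vehicle arrays carry a 9, 4 KO vehicle and 4 WT vehicle arrays a 7, and all 6 WT OCA and 2 WT vehicle arrays a 5. Under vehicle the genotypes could therefore be compared within number 7, while under OCA the number and the genotype cannot be told apart except through the vehicle arrays.

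Under vehicle, KO livers had higher levels of 5 of the 9 genes than WT livers. Krt8 and Krt18, the simple-epithelium pair, rose by 0.98 and 0.75 on the log2 scale, Epcam and Muc1, both surface glycoproteins of epithelia, by 0.58 and 0.56, and Krt19, the ductal type I keratin, by 0.48. None of the 9 was called lower, and Krt7, Krt23, Sox9 and Cftr did not pass the test. The call was a limma adjusted p under 0.05 over all 18820 genes, which 27.5% of all genes passed in this comparison, 15.4% as higher and 12.1% as lower. The median change of the 9 genes was 0.48, beside −0.03 over all genes, and all 9 changes were above 0. Without WT vehicle replicate 6 the number called was also 5. Within code number 7 it was 4, the median change was 0.39, and 8 of the 9 changes were above 0 and that of Krt23 below.

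Krt8 encodes the type II chain of the pair. Its lowest, median and highest levels were 10.26, 10.51 and 10.59 in KO vehicle livers, against 9.01, 9.52 and 9.86 in WT vehicle livers. The groups did not overlap: the lowest KO array was 0.41 above the highest WT array. The difference was 1.97-fold (log2 0.98 ± 0.11 SE, limma adjusted p = 1.35e-07, n = 6 each).

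Krt18, the type I partner of Krt8, had lowest, median and highest levels of 9.96, 10.19 and 10.26 in KO vehicle livers, against 9.15, 9.33 and 9.75 in WT vehicle livers. Again every KO array was above every WT array, with 0.21 between them. The difference was 1.69-fold (log2 0.75 ± 0.09 SE, limma adjusted p = 6.53e-07). The highest WT vehicle value of both genes came from replicate 6, the array that stood apart, and within code number 7, which does not hold it, the differences were 1.04 for Krt8 (adjusted p = 0.000262) and 0.84 for Krt18 (adjusted p = 5.25e-05).

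**Figure D1:**
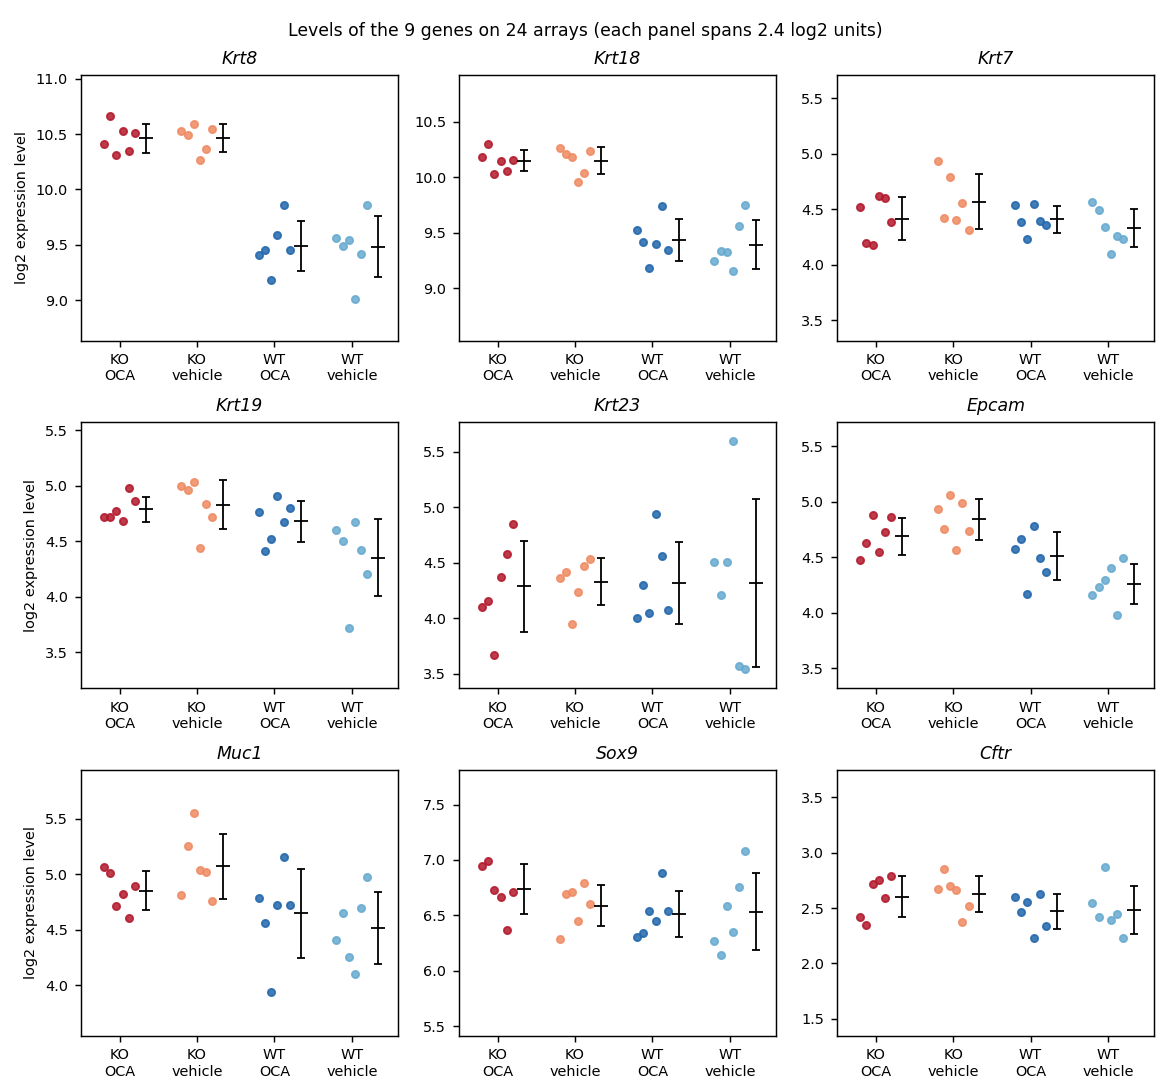
Levels of the 9 genes on the 24 arrays. Each panel is 1 gene, the vertical axis is the log2 expression level over a span of 2.4 units, each point is 1 mouse, and the bars beside the points are the group mean ± SD (n = 6). All 12 KO arrays sit above all 12 WT arrays for Krt8 and Krt18, with 0.41 and 0.21 between them, and for Epcam the KO and WT vehicle groups do not overlap either (0.08 between them). The genotypes overlap for the other 6 genes under both treatments.

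Epcam encodes a homotypic adhesion protein of duct cells and of hepatic progenitor cells. It had lowest, median and highest levels of 4.57, 4.85 and 5.06 in KO vehicle livers, against 3.98, 4.26 and 4.49 in WT vehicle livers. The groups did not overlap, with a gap of 0.08. The difference was 1.5-fold (log2 0.58 ± 0.11 SE, limma adjusted p = 0.000123), and within code number 7 it was 0.57 (adjusted p = 0.00442).

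Muc1 encodes a transmembrane mucin of the apical surface. Its lowest, median and highest levels were 4.76, 5.03 and 5.55 in KO vehicle livers, against 4.10, 4.53 and 4.98 in WT vehicle livers. The groups overlapped, and 4 of the 6 KO arrays were above every WT array. The difference was 1.47-fold (log2 0.56 ± 0.16 SE, limma adjusted p = 0.0122). It was 0.74 within code number 7 (adjusted p = 0.00878), and with the letter of the array code as a block it was 0.45 and no longer passed (adjusted p = 0.0777).

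Krt19 encodes a type I keratin that serves as the routine tissue marker of bile ducts. It had lowest, median and highest levels of 4.44, 4.90 and 5.03 in KO vehicle livers, against 3.72, 4.46 and 4.67 in WT vehicle livers. 5 of the 6 KO arrays were above every WT array, and the lowest WT value was on replicate 3, where the next lowest was 4.21. The difference was 1.39-fold (log2 0.48 ± 0.13 SE, limma adjusted p = 0.00574). It was 0.39 and no longer passed the test within code number 7 (adjusted p = 0.208) or with the number as a block (adjusted p = 0.085).

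Krt7, the type II keratin of ducts, had lowest, median and highest levels of 4.31, 4.49 and 4.94 in KO vehicle livers, against 4.10, 4.30 and 4.57 in WT vehicle livers. 2 of the 6 KO arrays were above every WT array. The difference of 0.24 did not pass the test (adjusted p = 0.0983; 95% interval 0.02 to 0.46). Within code number 7 it was 0.14 (adjusted p = 0.48), and without KO vehicle replicate 6 it was 0.29 and passed (adjusted p = 0.0495).

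Sox9 encodes a transcription factor of the biliary lineage. Its lowest, median and highest levels were 6.29, 6.65 and 6.80 in KO vehicle livers, against 6.15, 6.47 and 7.08 in WT vehicle livers, where the highest value was replicate 6. The difference was 0.06 (adjusted p = 0.808; 95% interval −0.22 to 0.34), and no KO array was above every WT array. Within code number 7 it was 0.30 and did not pass either (adjusted p = 0.0711).

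Krt23 encodes a type I keratin described in injured liver. Its lowest, median and highest levels were 3.95, 4.39 and 4.53 in KO vehicle livers, against 3.54, 4.36 and 5.59 in WT vehicle livers. The WT vehicle arrays reached below and above all KO vehicle arrays. The difference was 0.01 (adjusted p = 0.989), with a 95% interval of −0.52 to 0.53. Within code number 7 it was −0.41 (adjusted p = 0.305).

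Cftr encodes the chloride channel of the apical membrane of cholangiocytes. It had lowest, median and highest levels of 2.37, 2.67 and 2.85 in KO vehicle livers, against 2.23, 2.43 and 2.87 in WT vehicle livers. The difference was 0.14 (adjusted p = 0.318; 95% interval −0.07 to 0.36), and within code number 7 it was 0.01 (adjusted p = 0.983). All its values were below the lower quartile of gene means, and no detection calls were used here, so a level at the background of the array was not tested.

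Markers of other cells of the liver also differed between the genotypes in the same arrays. The marker counts here and below stand beside 15.4% of all genes called higher and 12.1% called lower. Of 12 marker genes of stellate cells and fibroblasts, 11 were called higher and 0 lower in KO vehicle livers, with a median change of 1.05, and the mean of the 12 lay between 7.12 and 7.48 on the KO vehicle arrays, against 6.20 to 6.55 on the WT vehicle arrays. Col1a1, a fibrillar collagen chain, rose by 1.54 (limma adjusted p = 1.18e-08), and Lum, a collagen-binding proteoglycan, by 1.55 (adjusted p = 1.4e-11). Of 11 Kupffer cell and macrophage markers, 8 were called higher and 0 lower (median change 0.83), and their mean lay between 8.02 and 8.33 in KO vehicle livers, against 6.81 to 7.72 in WT vehicle livers. Gpnmb, a glycoprotein of lipid-laden macrophages, rose by 3.43 (adjusted p = 1.14e-17). Of 9 genes of dividing cells, 8 were called higher and 0 lower (median 0.62), and their mean lay between 5.33 and 5.74 in KO vehicle livers, against 4.60 to 5.04 in WT vehicle livers. Mki67 rose by 1.14 (adjusted p = 0.000329).

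Of 8 hepatocyte markers, 2 were called lower and 0 higher, Hnf4a at −0.52 (limma adjusted p = 2.95e-05) and Cps1 at −0.30 (adjusted p = 5.33e-05), and their mean lay between 12.40 and 12.48 in KO vehicle livers, against 12.54 to 12.67 in WT vehicle livers. Of 8 markers of sinusoidal endothelium 0 were called higher and 2 lower (Kdr and Oit3), and their mean lay between 8.00 and 8.44 in KO vehicle livers, against 8.30 to 8.62 in WT vehicle livers. Of 10 markers of lymphocytes and neutrophils 1 was called higher (Ptprc) and 1 lower (Cd4), and their mean lay between 4.12 and 4.31 in KO vehicle livers, against 4.14 to 4.76 in WT vehicle livers. Under OCA, 17.4% of all genes were called higher and 13.3% lower. There the counts higher and lower were 0 and 5 for hepatocytes, 2 and 0 for endothelium, and 1 and 0 for lymphocytes and neutrophils. They were 11 and 0 for stellate cells and fibroblasts, 9 and 0 for macrophages, and 5 and 0 for dividing cells. The part of these cells in the differences of the 9 genes was not tested.

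Tissue from beside the liver could also bring epithelial genes into a sample. The 4 measured pancreatic acinar markers had a mean between 3.10 and 3.40 in KO vehicle livers, against 3.06 to 3.49 in WT vehicle livers, and 0 of the 4 were called. Of 8 intestinal markers 1 was called higher (Lgr5) and 2 lower (Fabp2 and Muc2), and their mean lay between 4.13 and 4.28 in KO vehicle livers, against 4.25 to 4.49 in WT vehicle livers. Of 6 mesothelial markers 1 was called higher (Wt1) and 1 lower (Upk3b), with a mean between 3.71 and 4.07 in KO vehicle livers, against 3.70 to 4.13 in WT vehicle livers. Of 4 adipocyte markers 0 were called, with a mean between 3.48 and 3.77 in KO vehicle livers, against 3.39 to 4.65 in WT vehicle livers. The defining acinar gene Cpa1, a carboxypeptidase, had a mean of 3.55 in KO vehicle livers and 3.72 in WT vehicle livers.

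Under OCA, Krt8 and Krt18 were higher in KO than in WT livers by nearly the same amounts, and no other gene of the 9 was called. Of all genes 30.7% passed the test, 17.4% as higher and 13.3% as lower. Krt8 had lowest, median and highest levels of 10.32, 10.46 and 10.66 in KO OCA livers, against 9.18, 9.45 and 9.86 in WT OCA livers, with no overlap (gap 0.46). The difference was 1.96-fold (log2 0.97 ± 0.11 SE, limma adjusted p = 1.38e-07, n = 6 each). Krt18 had lowest, median and highest levels of 10.03, 10.15 and 10.30 in KO OCA livers, against 9.18, 9.41 and 9.74 in WT OCA livers, again with no overlap (gap 0.29). The difference was 1.64-fold (log2 0.71 ± 0.09 SE, adjusted p = 1.34e-06). With the code number as a block, in a fit that leans on the vehicle arrays, the differences were 1.14 for Krt8 (adjusted p = 0.00409) and 0.97 for Krt18 (adjusted p = 0.0009).

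Krt8 and Krt18 were thus the 2 genes of the 9 for which all 12 KO arrays were above all 12 WT arrays, as 5.96% of all genes were. Groups that did not overlap were found for 3 of the 9 genes under vehicle, where 15.1% of all genes had such groups, and for 2 under OCA, where 18.4% had.

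The 3 other genes called under vehicle did not pass the test under OCA. Epcam had lowest, median and highest levels of 4.47, 4.68 and 4.88 in KO OCA livers, against 4.17, 4.53 and 4.78 in WT OCA livers, and the difference of 0.18 did not pass (limma adjusted p = 0.216; 95% interval −0.04 to 0.40). Muc1 had 4.61, 4.86 and 5.07 in KO OCA livers, against 3.94, 4.72 and 5.16 in WT OCA livers, with a difference of 0.20 (adjusted p = 0.389; 95% interval −0.14 to 0.54). Krt19 had 4.69, 4.75 and 4.98 in KO OCA livers, against 4.42, 4.72 and 4.91 in WT OCA livers, with a difference of 0.11 (adjusted p = 0.574; 95% interval −0.16 to 0.37). For each of these 3 genes the groups overlapped. Blocked by the code number, the differences were 0.13 for Epcam (adjusted p = 0.81), 0.74 for Muc1 (adjusted p = 0.213), about as large as the 0.74 of Muc1 under vehicle in that fit, and −0.17 for Krt19 (adjusted p = 0.785). With WT vehicle replicate 6 also left out, they were −0.13 for Epcam, 0.60 for Muc1 and −0.065 for Krt19. Whether the genotype difference itself depended on the treatment is the same contrast as the difference of the OCA effects, where none of the 3 passed the test.

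Sox9 had lowest, median and highest levels of 6.37, 6.72 and 6.99 in KO OCA livers, against 6.30, 6.49 and 6.88 in WT OCA livers. The difference of 0.23 did not pass the test (limma adjusted p = 0.227). With the code number as a block it was 0.96 and passed (adjusted p = 0.0187). With WT vehicle replicate 6 also left out of that fit, it was 0.79 and did not pass (adjusted p = 0.0963). The Sox9 value thus rests on how the number and that array are treated. Cftr had levels of 2.35 to 2.79 in KO OCA livers, against 2.23 to 2.63 in WT OCA livers, with a difference of 0.13 (adjusted p = 0.358). Krt7 differed by 0.01 (adjusted p = 0.97), with 4.17 to 4.62 in KO OCA livers, against 4.23 to 4.55 in WT OCA livers. Krt23 differed by −0.04 (adjusted p = 0.942), with 3.67 to 4.85 in KO OCA livers, against 4.00 to 4.94 in WT OCA livers. In the fit blocked by number Krt23 differed by −1.28 (adjusted p = 0.0957), Krt7 by −0.29 (adjusted p = 0.522) and Cftr by −0.29 (adjusted p = 0.475), so the size of these differences, too, rests on how the number is treated.

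**Figure D2:**
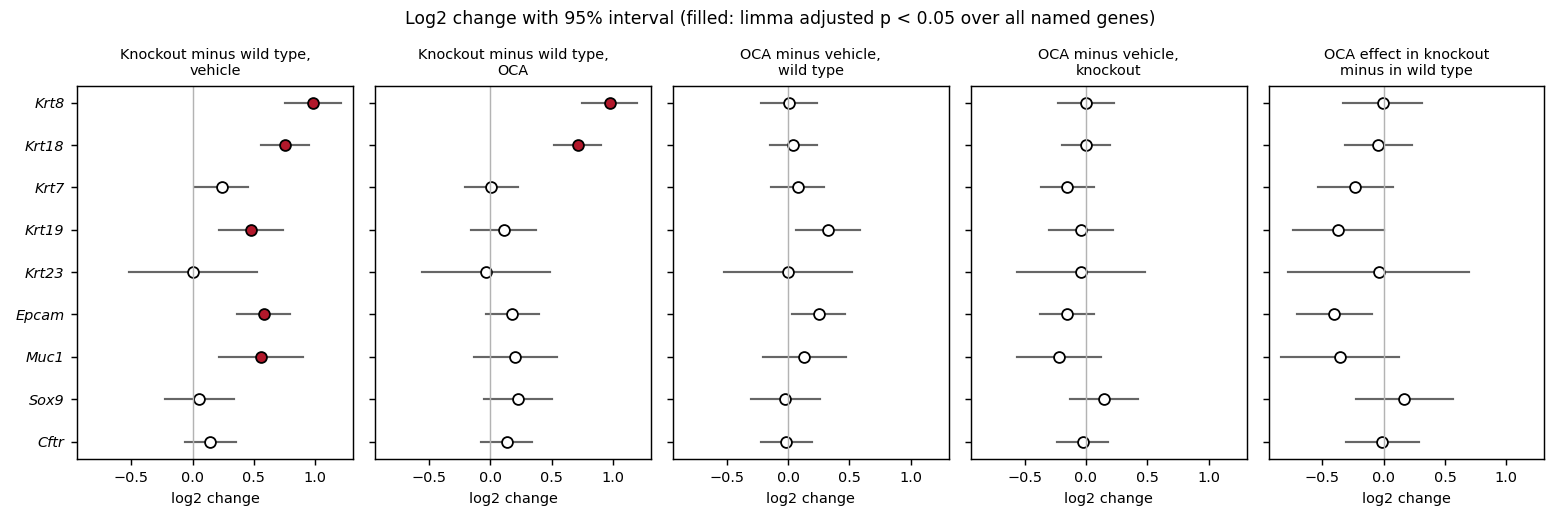
Log2 changes of the 9 genes in the 5 contrasts. Points are limma estimates, lines are 95% intervals, and filled points passed an adjusted p of 0.05 over all named genes. Filled points occur for 5 genes in KO minus WT under vehicle and for 2 under OCA, and for none in the 3 panels on OCA.

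OCA against vehicle changed none of the 9 genes past the test in either genotype. Over all genes 0.0159% passed in KO livers (3 genes) and 0.0691% in WT livers (13 genes). At an unadjusted p under 0.05, 0 of the 9 genes and 968 of all genes passed in KO livers, and 2 of the 9 and 1782 of all genes in WT livers. The median change of the 9 genes was −0.04 in KO livers and 0.04 in WT livers, beside 0.00 over all genes in both. Groups that did not overlap were found for none of the 9, and for 0.654% of all genes in KO livers and 0.457% in WT livers.

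In WT livers Krt19 had a lowest, median and highest level of 4.42, 4.72 and 4.91 under OCA, against 3.72, 4.46 and 4.67 under vehicle. 4 of the 6 OCA arrays were above every vehicle array, and the difference of 0.33 had an unadjusted p of 0.0167 and a limma adjusted p of 0.392 (95% interval 0.07 to 0.59). Epcam had 4.17, 4.53 and 4.78 under OCA, against 3.98, 4.26 and 4.49 under vehicle. Again 4 of the 6 OCA arrays were above every vehicle array, and the difference of 0.25 had an unadjusted p of 0.0263 and an adjusted p of 0.45. The WT vehicle arrays of these values are the same that KO vehicle livers were compared with above, so the contrasts share them. Within code number 5, which holds 6 OCA and 2 vehicle arrays of WT mice, the differences were 0.37 for Krt19 (adjusted p = 0.377) and 0.28 for Epcam (adjusted p = 0.603). The genes that moved most in that setting were Krt23, at 0.76 (adjusted p = 0.287) against 0.00 over all WT arrays, and Sox9, at −0.41 (adjusted p = 0.377) against −0.02. Replicate 6, the array that stood apart, is among the 2 vehicle arrays of number 5. The fit with the number as a block gave the same differences. Without replicate 6 that fit gave 0.26 for Krt19, 0.53 for Epcam, 0.75 for Krt23 and −0.245 for Sox9.

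Krt8 and Krt18 did not pass the test between the treatments. In KO livers the changes of both rounded to 0.00, with 95% intervals of −0.23 to 0.23 for Krt8 and −0.19 to 0.19 for Krt18 (limma adjusted p = 1 for each). In WT livers Krt8 differed by 0.01 (adjusted p = 0.989; 95% interval −0.22 to 0.23) and Krt18 by 0.04 (adjusted p = 0.929; 95% interval −0.15 to 0.24). These intervals do not reach the size of the genotype differences of these 2 genes. Within code number 9 the KO changes were −0.04 for Krt8 and −0.09 for Krt18, and within number 5 the WT changes were −0.15 and −0.22, and none of the 4 passed the test. With the number as a block and WT vehicle replicate 6 left out, the WT changes were 0.07 and −0.12. In KO livers the largest differences among the 9 genes were −0.22 for Muc1 (adjusted p = 0.986), −0.16 for Epcam and −0.15 for Krt7 (adjusted p = 0.986 for each), and 0.15 for Sox9 (adjusted p = 0.996). The groups overlapped: Muc1 lay between 4.61 and 5.07 under OCA, against 4.76 to 5.55 under vehicle, and Epcam between 4.47 and 4.88 under OCA, against 4.57 to 5.06 under vehicle.

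The difference of the OCA effects between genotypes (KO minus WT) was below 0 for 8 of the 9 genes, and none passed the test. With the code number as a block it was below 0 for 5 of the 9 and above 0 for Krt8, Krt18, Sox9 and Muc1, and again none passed. No gene of all 18820 passed it (0%), with 1140 genes and 1 of the 9 at an unadjusted p under 0.05. That gene was Epcam, at −0.40 ± 0.15 SE (unadjusted p = 0.0121, limma adjusted p = 0.70; 95% interval −0.71 to −0.10). Krt19 followed with −0.37 ± 0.18 SE (unadjusted p = 0.0511, adjusted p = 0.831) and Muc1 with −0.35 (adjusted p = 0.855). In that blocked fit Epcam was at −0.44 (adjusted p = 0.408), Krt19 at −0.56 (adjusted p = 0.356), Muc1 at 0.01 (adjusted p = 0.996) and Sox9 at 0.66 (adjusted p = 0.208). With WT vehicle replicate 6 also left out of the blocked fit, the difference was below 0 for 7 of the 9 genes. The intervals of Krt8 (−0.33 to 0.31) and Krt18 (−0.31 to 0.23) spanned 0.

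The other genes listed for cholangiocytes moved unevenly between KO and WT vehicle livers. The counts of this list and of those below stand beside 15.4% of all genes called higher and 12.1% called lower. Of 24 measured cholangiocyte genes outside the 9, 11 were called higher and 1 lower, with a median change of 0.23. Within code number 7 these counts were 10 and 2, and with the number as a block 9 and 1. Cd24a, a surface sialoglycoprotein of progenitor cells, rose by 1.28 (limma adjusted p = 4.52e-10), Bicc1, an RNA-binding protein needed for normal tubules, by 1.28 (adjusted p = 2.82e-09), Tspan8, a tetraspanin, by 0.94 (adjusted p = 1.21e-06) and Cldn7, a tight junction claudin, by 0.55 (adjusted p = 7.08e-06). The gene that fell was Onecut1, a transcription factor of hepatocytes and ducts, at −1.37 (adjusted p = 0.0104); it is named because of its value. The mean of the 24 lay between 5.59 and 5.65 in KO vehicle livers, against 5.20 to 5.41 in WT vehicle livers, so the vehicle groups did not overlap in it. Which cells of the liver gave the signals of these 24 genes was not tested. Under OCA, 10 of the 24 were called higher and 2 lower (Onecut1 and Pkhd1, named because of their values), beside 17.4% and 13.3% of all genes. The mean lay between 5.42 and 5.69 in KO OCA livers, against 5.30 to 5.45 in WT OCA livers, so these groups overlapped. Of the genes named as higher, Tspan8 and Bicc1 differed by 0.91 and 0.90 under OCA, Cd24a by 0.58 and Cldn7 by 0.05 (limma adjusted p = 0.705). Pkhd1 was at 0.23 under vehicle (adjusted p = 0.144) and at −0.375 under OCA (adjusted p = 0.0129).

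Of 19 genes of biliary secretion and bile acid handling, 8 were called higher and 5 lower in KO vehicle livers, with a median change of −0.02. The basolateral efflux pump genes Abcc4 and Abcc3 rose by 3.52 (adjusted p = 1.27e-16) and 1.16 (adjusted p = 9.42e-10), and the carbonic anhydrase gene Car2 by 1.84 (adjusted p = 1.1e-10). Slc51b, a subunit of the bile acid exporter that FXR induces, fell by 1.11 on the log2 scale (adjusted p = 4.73e-07), and it was also the list's 1 gene called in WT livers under OCA, at 1.02 (adjusted p = 0.000699). Also lower, and named because of their values, were Slc10a2, P2ry2, Vipr1 and Slc51a. The mean of Slc51a was 2.97 in KO vehicle livers and 3.23 in WT vehicle livers, below the lower quartile of gene means (3.29).

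Of 16 genes of the Notch pathway, which directs cells to the biliary fate, 3 were called higher and 2 lower in KO vehicle livers (median 0.06). Over all genes 15.4% were called higher and 12.1% lower in this comparison, and the Notch counts are close to those shares. The receptor gene Notch1 rose by 0.72 (limma adjusted p = 1.11e-06), the target gene Hey1 by 0.81 (adjusted p = 2.46e-07) and the feedback inhibitor gene Nrarp by 0.49 (adjusted p = 0.0121). The coactivator gene Maml1 fell, at −0.29 (adjusted p = 0.0018), and so did Heyl, named because of its value. Of 17 genes of the Hippo and YAP pathway, 5 were called higher and 1 lower (median 0.04): the receptor kinase gene Axl at 1.02 (adjusted p = 7.07e-07), the matrix protein gene Ccn2 at 1.01 (adjusted p = 0.0073), Ankrd1 at 0.55 and Wwtr1, which encodes the coactivator TAZ, at 0.45, with Ccn1 the fifth and Nf2 the lower one, both named because of their values. With the code number as a block the Hippo and YAP counts were 3 higher and 0 lower.

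Of 19 genes of signals described in the ductular reaction, 9 were called higher and 4 lower (median 0.21), beside 15.4% and 12.1% of all genes. The lower calls numbered 3 without WT vehicle replicate 6, 3 within code number 7 and 2 with the number as a block, with 9 higher each time. Tnfrsf12a, the receptor of the cytokine TWEAK, rose by 1.07 (limma adjusted p = 4.58e-05), Tgfb2 by 0.89 (adjusted p = 1.88e-05), Cxcr4, a chemokine receptor, by 0.67 (adjusted p = 0.00015) and the laminin chain gene Lama5 by 0.62 (adjusted p = 3.99e-07). Met, Fgfr2, Il6 and Vegfa were the lower ones and are named because of their values. The mean of Il6 was 1.97 in KO vehicle livers and 2.22 in WT vehicle livers, below the lower quartile of gene means (3.29). A level of Il6 at the background of the array was not tested, and under OCA its difference was 0.00 (adjusted p = 0.979). Of 19 epithelial junction genes, 5 were called higher and 0 lower (median 0.13): Cldn2, F11r, Dsp, Tjp1 and, named because of its value, Pkp2. Cldn2, a pore-forming claudin, rose by 0.59 (adjusted p = 1.56e-05) and Dsp, the desmosomal protein that anchors keratin filaments, by 0.48 (adjusted p = 0.0082). The junction counts were 4 higher and 2 lower without WT vehicle replicate 6, 3 and 3 within code number 7, and 2 and 0 with the number as a block. The junction median fell to 0.02 without that array, and to 0.05 within code number 7 and with the number as a block.

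Of 16 measured genes of keratin binding and keratin stress, 6 were called higher and 1 lower in KO vehicle livers (median 0.16). Tgm2, a transglutaminase that cross-links keratins into the inclusions called Mallory-Denk bodies, rose by 1.64 (limma adjusted p = 1.26e-08). Nfe2l2, which encodes the stress factor NRF2, rose by 0.72 (adjusted p = 3.44e-05), Txndc17 by 0.43 (adjusted p = 1.11e-06) and Sqstm1, the p62 protein of those inclusions, by 0.39 (adjusted p = 0.000399). Trim21, named because of its value, was the lower one.

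Few of the other keratin genes were called, and most had low levels. Of the 46 that the arrays named, 45 had a mean level below the median gene. In KO vehicle livers 1 was called higher and 1 lower, and the median change was −0.02. The mean of the list was 3.22 in KO vehicle livers and 3.24 in WT vehicle livers, below the lower quartile of gene means (3.29). Levels at the background of the array were not tested, so the few calls cannot show a contrast with the keratins described above. Of those, Krt7 and Krt23 were not called either. Krt20, an intestinal-type keratin, had a mean of 3.30 in KO vehicle livers and 2.74 in WT vehicle livers (0.56, adjusted p = 0.0235), and Krt2, an epidermal keratin, had 2.37 in KO vehicle livers and 2.65 in WT vehicle livers (−0.29, adjusted p = 0.00581). With the code number as a block 1 was called higher and 3 lower. Of 15 liver-enriched transcription factor genes, 2 were called higher, Klf6 at 1.43 (adjusted p = 9.5e-06) and Sox4 at 0.99 (adjusted p = 1.31e-05), and 4 lower (median −0.13). The lower ones were Hnf4a, given above, Foxa3 at −0.47 (adjusted p = 0.00544) and, named because of their values, Foxa2 and Prox1. Without WT vehicle replicate 6 the counts of this list were 3 higher and 6 lower, and with the number as a block 2 and 3.

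**Figure D3:**
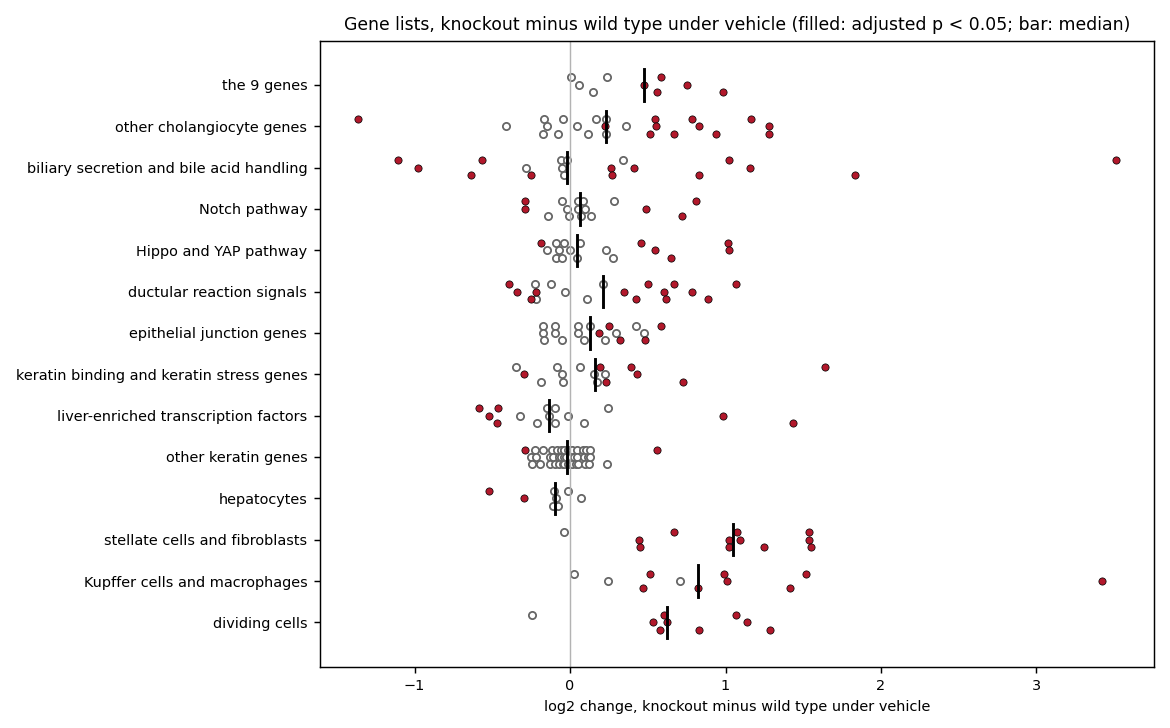
Changes of the gene lists between KO and WT vehicle livers. Each point is a gene, placed by its log2 change (KO minus WT), filled where the limma adjusted p was under 0.05, and the vertical bar is the median of the list. The 9 genes have a median of 0.48, the other cholangiocyte genes 0.23, the other keratins −0.02 and the stellate cell and fibroblast markers 1.05.

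Within groups, the levels of the 9 genes were set against each other as deviations from the group mean over the 24 arrays, 36 pairs in all. Krt8 and Krt18 moved together most closely, with r = 0.81 (permutation p = 9e-05, adjusted over the 36 pairs 0.00324) and rho = 0.65 (permutation p = 0.00168, adjusted 0.0605). Without the 2 arrays farthest from the median of Krt8, r was 0.73, and within the code numbers 5, 7 and 9, of 8 arrays each, it was 0.87, 0.80 and 0.92. The rho within these numbers was 0.79, 0.62 and 0.67.

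Muc1 deviated with both keratins. Its r with Krt8 was 0.69 (permutation p = 0.00145, adjusted 0.0182), with rho = 0.48 (permutation p = 0.0302, adjusted 0.272), and its r with Krt18 was 0.70 (permutation p = 0.00152, adjusted 0.0182), with rho = 0.63 (permutation p = 0.00368, adjusted 0.0662). Without the 2 farthest arrays r was 0.59 and 0.56. Both relations were closest within code number 5 (r = 0.86 with Krt8 and 0.91 with Krt18), with 0.46 and 0.25 within number 7 and 0.43 and 0.52 within number 9. The rho with Krt8 was 0.86, 0.405 and 0.29 within numbers 5, 7 and 9, and with Krt18 it was 0.93, 0.095 and 0.405. Without WT vehicle replicate 6 the adjusted p was 0.0812 for both (r = 0.63 and 0.64), and 0.0292 for Krt8 with Krt18 (r = 0.76). By r, 3 of the 36 pairs passed the adjusted threshold, by rho 0, and 6 pairs had an unadjusted p under 0.05 by r. The 3 genes share arrays and their normalisation, and the part of these in the relations was not tested.

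**Figure D4:**
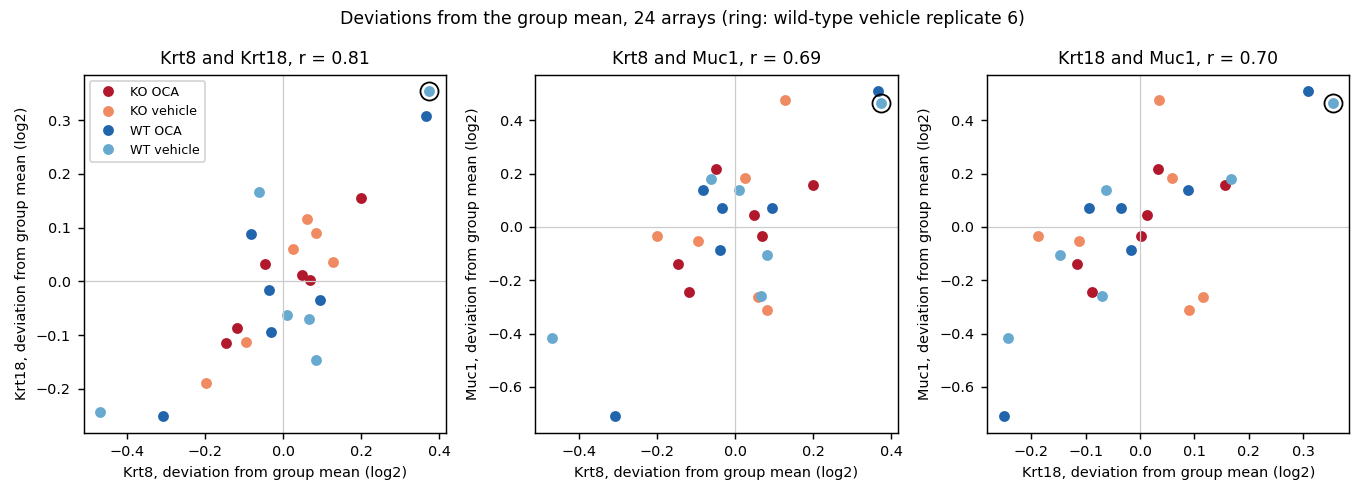
Deviations from the group mean for the 3 pairs of genes that passed by r. Each point is 1 of 24 arrays, axes are in log2 units, colours are the groups, and the ring marks WT vehicle replicate 6. That array and 1 WT OCA array lie at the upper right of all 3 panels, with r = 0.81, 0.69 and 0.70 over all arrays.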

How the data were processed

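Expression was measured on 24 arrays, 1 for each mouse liver. Per the labels' protocols, the RNeasy micro kit gave total RNA, which needed an integrity number above 8.0, and the Ambion WT expression kit gave the cDNA. The deposited values are log2 expression per probe set, obtained by the authors with RMA per the submitters' processing notes, and the log2 scale was taken from the range of the values (0.87 to 13.6); no source used here gives the RMA version or its settings. For arrays, the number of arrays limits the precision.

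From these values, 21218 of 35556 probe sets had 1 gene symbol, 1881 had several and 12457 were unlisted or had no symbol. Symbols of 21185 were updated by gene number through a RefSeq GRCm38.p6 table, and the probe set with the highest mean stood for each of 18820 genes. R 4.3.3 and limma 3.58.1 (lmFit and eBayes, 4 group means, all 24 arrays) gave each contrast, with Benjamini-Hochberg adjustment over all 18820 genes and calls at an adjusted p under 0.05. The script was tested on simulated data. Correlations used 100000 shuffles within groups (Python 3.11.15, numpy 2.4.6).

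The 9 genes and the gene lists were chosen with earlier results of these data known. Named genes were the 9, up to 4 genes of each list with the smallest p for KO against WT under vehicle, Nr1h4, and the 3 genes most like the 9. Alternatives covered scaling, filters, array weights, the array code as a block, the replicate block, probe set choice and leaving out each array.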

Additional observations from a re-analysis of the deposited data

How the results depend on the processing

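For KO against WT under vehicle, Krt8, Krt18 and Epcam were called in all 26 settings, Muc1 in 25 and Krt19 in 23, and under OCA Krt8 and Krt18 in all 25. None of the 9 genes was called in any setting for OCA or for the difference of the OCA effects. The calls that changed were those given for Krt19, Muc1, Sox9 and Krt7, and Krt19 also lost its call with the code number as a block and no WT vehicle array 6 (0.39, adjusted p = 0.0831). Signs turned 55 times, while sign and call were both kept 543 times. On leaving out 1 array these counts were 81 and 566. Each turn came where neither value was called, and some of the values that turned were 0.00 to rounding. The largest value that turned was 0.76 for Krt23 under OCA in WT livers with the code number as a block (adjusted p = 0.158), against 0.00. Only 3 of the 9 genes had a mean at or above the median gene, and the other 6 were kept in the setting that filtered on it. The cause was not tested.

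The counts over all genes moved more. For KO against WT under OCA (5780 genes) the code number as a block gave 2334, and 1834 with WT vehicle array 6 also left out, a setting chosen after seeing the data. For OCA in WT livers (13 genes) the count was 22 with genes at or above the median gene, 5 with array weights, 2 with only the groups compared, 667 with the number as a block, 5 within 1 number, 2 with the code letter as a block, 7 without the arrays ending in _2, 2 over all probe sets, 77 with the number as a block and no WT vehicle array 6, and 2 to 21 leaving out 1 array each. For OCA in KO livers (3 genes) it was 0 with the median-gene filter, with only the groups compared, with the code number or the code letter as a block, within 1 number, without the arrays ending in _2 and with the number as a block and no WT vehicle array 6, 11 with array weights, 5 over all probe sets, and 0 to 4 leaving out 1 array each. For the difference of the OCA effects (0 genes) it was 2 with array weights, 34 with the number as a block, 12 with array 6 also left out, and 0 to 3 leaving out 1 array each. Correlated pairs by r numbered 1 in place of 3 without WT vehicle replicate 6.

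Replicate numbers are shared between groups in the labels, but only 2 of 36 same-numbered pairs of arrays had a correlation of deviations over 0.1 (range −0.08 to 0.17), so they were not taken to pair mice. With the replicate block, OCA in WT livers gave 4 genes, KO against WT under vehicle 5060, and no call of the 9 genes changed.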

Other observations

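Krt23 in WT vehicle livers had the largest SD of the 36 combinations of gene and group. Its levels there were 4.50, 4.21, 4.50, 5.59, 3.57 and 3.54 (SD 0.76, n = 6), and the 2 lowest were the 2 arrays of code number 5, while the other 4 were of number 7. In the 6 WT OCA arrays, all of number 5, it lay between 4.00 and 4.94. In the other groups its SD was 0.41 in KO OCA, 0.21 in KO vehicle and 0.37 in WT OCA livers.

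Outside the 9 genes, those whose deviations from the group means followed the mean standardised deviation of the 9 most closely over the 24 arrays were Epc2 (r = 0.79), Tanc1 (r = 0.74) and Mvb12a (r = 0.72), among 9242 genes at or above the median gene. These values are a description of arrays that share their normalisation. Between KO and WT vehicle livers the 3 genes went different ways, with −0.28 for Epc2 (limma adjusted p = 0.0308), 0.34 for Tanc1 (adjusted p = 4.21e-05) and −0.17 for Mvb12a (adjusted p = 0.0201).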
